A study of Mus musculus with 8 samples.

Results

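Thymic lymphomas in which the ΔN form of p73 was deleted were compared with lymphomas that received a virus without Cre recombinase. The comparison used 5 of the 8 libraries of the series, chosen by their genotype labels: 3 labelled ΔNp73Δ/Δ;p53-/- and 2 controls labelled ΔNfl/fl;p53-/-. All 5 came from C57BL/6 mice without p53, aged 10 weeks, whose lymphoma was injected with adenovirus and taken for RNA 48 hours later. The ΔNp73-deleted tumours received Ad-CRE-mCherry, which carries Cre and the red fluorescent protein mCherry, and the controls received Ad-mCherry. The control thus differs both in virus and in genotype, and an effect of Cre and an effect of the deletion cannot be told apart here. The control label does not say which gene carries the floxed allele, and the labels do not say whether the libraries of a group came from separate mice. Y-linked genes, given below, were on in 1 library of each group and off in the rest. The 2 controls are thus unlikely to be from 1 mouse, nor ΔNp73-deleted replicate 1 from the mouse of replicates 2 or 3. Whether replicates 2 and 3 came from separate mice is unknown. The p-values therefore describe only how these samples spread, which may be in part technical. The other 3 libraries, labelled ΔNp63Δ/Δ;p53-/- and also given Ad-CRE-mCherry, serve below as a second group that received Cre.

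The Trp73 gene makes full-length TAp73 proteins, which switch on many of the genes that p53 switches on, and shorter ΔNp73 proteins from an internal promoter. ΔNp73 lacks the N-terminal transactivation domain, still binds DNA, and can block p53 and TAp73. Mice without p53 often develop thymic lymphoma, a tumour of immature T cells, and deleting a ΔN form in an established tumour asks what happens when a possible brake on the remaining family members is removed. Injected adenovirus reaches only some of the cells, and the tissue also holds macrophages, stroma, vessels, thymic epithelium and fat.

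Expression was measured by RNA sequencing of whole tumour tissue and is given as FPKM, fragments scaled by transcript length and library size, quantile-normalised by the authors. Library depth is unknown. Since the normalisation makes the distribution of values equal in all libraries, the data cannot show whether total RNA changed. In bulk tissue, fewer cells of a type and less RNA per cell cannot be told apart. Across genes the 2 controls correlated at r = 0.972 and the ΔNp73-deleted libraries at 0.951 to 0.976, while pairs of 1 control and 1 ΔNp73-deleted library lay at 0.885 to 0.931. These correlations are across genes, which are not independent replicates. Defining T cell genes were high in all 5 libraries, with Thy1 at 462 to 1479 FPKM and Cd3e, a chain of the T cell receptor complex, at 235 to 430. Trp73 is not analysed here, so the values do not show whether ΔNp73 was lost. Y-linked genes were on in control replicate 1 and ΔNp73-deleted replicate 1 alone (Ddx3y 17.3 and 21.4 FPKM, at most 0.0226 in the other 3), 1 library in each group.

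Differences were tested with limma on log2(FPKM + 1) in these 5 libraries alone, and a fold change on this scale understates the change of genes with low values. Genes are said to have risen or fallen where the p-value, Benjamini-Hochberg adjusted over all 12921 genes tested, was under 0.05. Of these genes 3856 changed (29.8%): 1990 rose (15.4%) and 1866 fell (14.4%). The median difference over all genes was -0.07. All 3 ΔNp73-deleted libraries lay above both controls for 3575 genes (27.7%) and below both for 4616 (35.7%). Large changes were mostly rises: 749 genes rose and 379 fell by 1 log2 unit or more, and 152 rose and 46 fell by 2 or more. ΔNp73-deleted replicate 3 was the library of its group nearest to the controls for 60.7% of the genes that rose and 71.3% of those that fell, while replicate 1 was the farthest for 47.0% and 69.2%.

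The number of genes called rested on having both controls. It was 118 (102 higher, 16 lower) without control replicate 1 and 133 (111 higher, 22 lower) without control replicate 2, where the lone control is assumed to vary like the other group. Without ΔNp73-deleted replicate 2 it was 1790, and of these 1758 were among the 3856. A model that also held the 3 ΔNp63-deleted libraries called 7 genes, with 2747 at an unadjusted p under 0.05. ΔNp63-deleted replicate 2 stands apart from its group, and with it left out of that model the count was 4218, of which 3700 were among the 3856. Settings on the scale, the filter and the prior gave 3003 to 3982 genes, and the sum of a symbol's entries gave 4232.

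**Figure D1:**
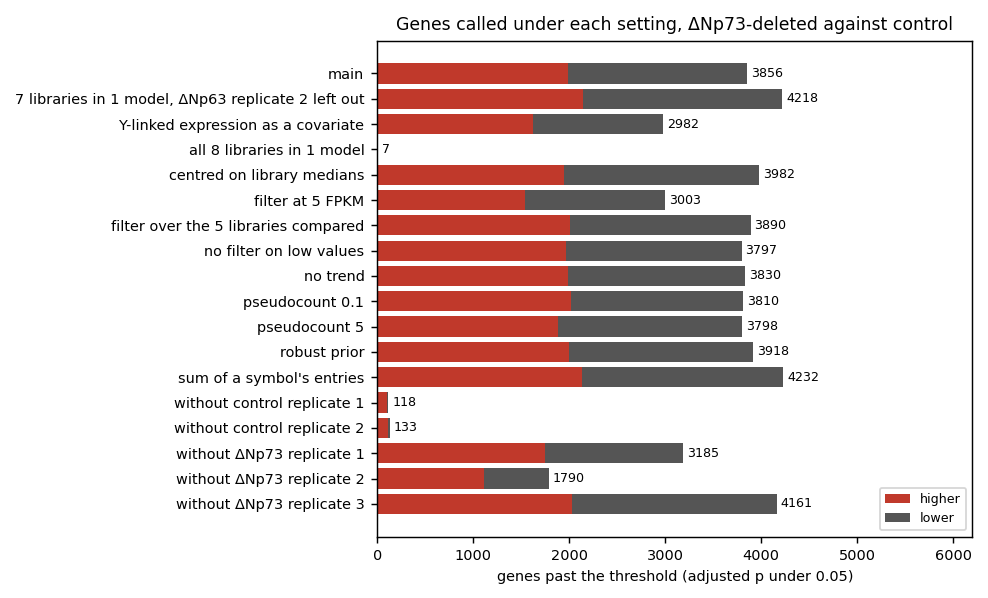
Number of genes past an adjusted p of 0.05 in ΔNp73-deleted against control (x axis) under each way of processing (y axis), split into genes higher and lower. The count was 3856 in the reported fit, 118 and 133 with a control left out, and 7 with all 8 libraries in 1 model.

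Among genes with a descriptive symbol, the largest rises were mostly in secreted and surface proteins of inflammation, and the largest falls mostly in histones. Ccl2, the chemokine that draws monocytes out of the blood, was at 1.76 and 2.83 FPKM in control and 178, 152 and 74.6 with ΔNp73 deleted (log2 fold change 5.29, SE 0.39, adjusted p = 0.00276). Its relative Ccl7 was at 1.12 and 1.82 FPKM in control tumours against 145, 98.6 and 43.8 after ΔNp73 deletion (log2 fold change 5.15, SE 0.49, adjusted p = 0.00366). Spp1, which encodes the secreted matrix and cytokine protein osteopontin, was at 2.65 and 2.08 in control and 127, 124 and 124 FPKM in ΔNp73-deleted tumours (log2 fold change 5.23, SE 0.10, adjusted p = 5.78e-05). For all 3 genes the groups were far apart, and the ΔNp73-deleted libraries were nearly equal for Spp1 but spread over 2-fold for Ccl2 and Ccl7.

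Timp1, an inhibitor of matrix metalloproteinases, was at 4.31 and 3.64 FPKM in control and 109, 110.0 and 81.8 with ΔNp73 deleted (log2 fold change 4.34, SE 0.16, adjusted p = 0.00109). The other 8 of the 12 largest rises were Clec4d (log2 fold change 4.44), a lectin receptor of myeloid cells, Slfn4 (4.2), a Schlafen gene, Ifitm1 (4.17) and Ifitm6 (4.04), of the interferon-induced transmembrane family, Stfa2l1 (4.12), a stefin, Saa3 (4.02), an acute-phase protein, Slpi (3.89), an inhibitor of leukocyte proteases, and Fcgr4 (3.88), an antibody receptor. Their adjusted p ran from 0.00185 to 0.00737. Among genes with a descriptive symbol, 9 of the 12 largest falls were replication-dependent histone genes. Of the 5 entries that fell by 3 log2 units or more, 4 have no descriptive symbol and are not named. The other 3 of the 12 were Mxd3, a MAX-binding repressor expressed in dividing cells (at 21.2 and 18.7 FPKM in control tumours against 2.36, 1.98 and 4.29 after ΔNp73 deletion, log2 fold change -2.48, SE 0.26, adjusted p = 0.00445), Retnla, a secreted product of alternatively activated macrophages (14 and 15.2 against 2.06, 1.29 and 2.27 FPKM, log2 fold change -2.46), and Mns1 (29.6 and 27.9 against 3.37, 4.0 and 7.27, -2.39).

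**Figure D2:**
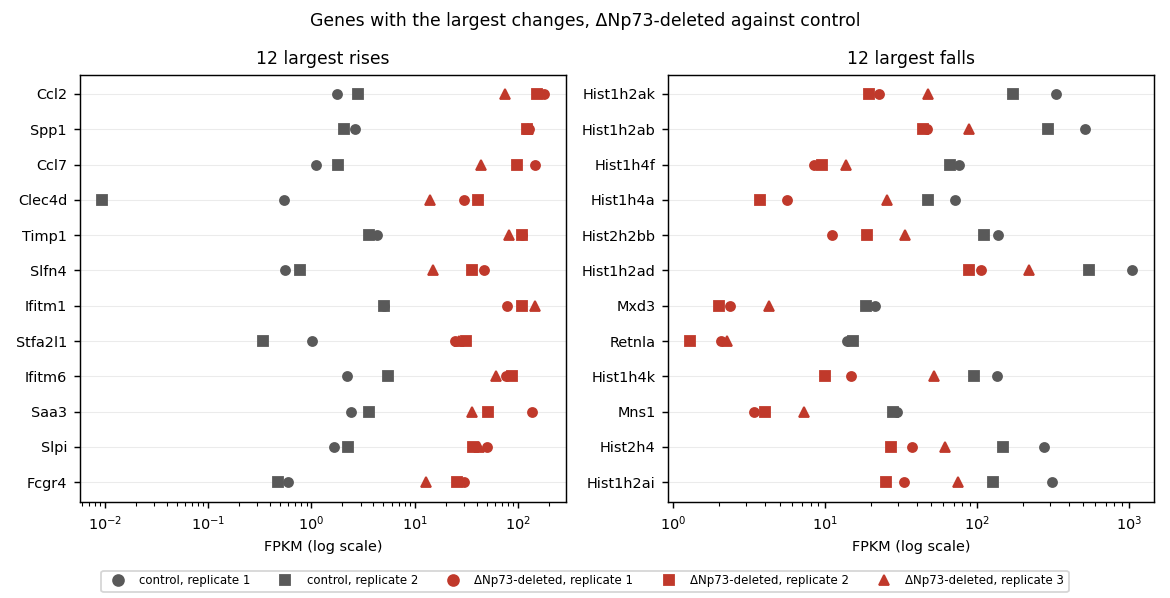
FPKM on a log scale (x axis) in each control and ΔNp73-deleted library for the 12 genes with the largest rises (left) and the 12 with the largest falls (right) among named protein-coding genes past the threshold. Genes were eligible only if every ΔNp73-deleted library lay on the same side of both controls, so this separation was fixed by the choice. ΔNp73-deleted replicate 3 is often the library of its group nearest to the controls.

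Genes of mitosis fell nearly as a whole. Of 60 genes of mitosis and the spindle, 59 fell and 0 rose (limma; 0 higher at an unadjusted p under 0.05), with a median of -1.57 log2 units against -0.07 over all genes tested. Mki67, the proliferation antigen Ki-67, was at 104 and 88.3 in control and 18.4, 16.9 and 34.9 FPKM in ΔNp73-deleted tumours (log2 fold change -2.06, SE 0.31, adjusted p = 0.0091). Ccnb1, cyclin B1, was at 57 and 55.7 FPKM in control and 12.3, 14.6 and 20.3 with ΔNp73 deleted (log2 fold change -1.8, SE 0.20, adjusted p = 0.005). Its partner kinase gene Cdk1 was at 20.2 and 16.7 FPKM in control tumours against 5.11, 7.8 and 8.18 after ΔNp73 deletion (log2 fold change -1.29, SE 0.21, adjusted p = 0.0102). In each of these genes the 3 ΔNp73-deleted libraries lay below both controls, and replicate 3 was the highest of the 3. Aurkb, the kinase of the chromosomal passenger complex, fell by 1.58 (SE 0.26, adjusted p = 0.0116), Tpx2, which activates Aurora A on the spindle, fell by 1.81 (SE 0.17, adjusted p = 0.00361), and Ect2, needed for cytokinesis, fell by 1.77 (SE 0.14, adjusted p = 0.00294). The 1 gene of the list that did not pass was Pttg1, the securin that holds back chromatid separation. Without control replicate 1 or 2, 0 and 1 of the 60 fell, and without ΔNp73-deleted replicate 2, 51.

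The genes that copy DNA fell as broadly but by less. Of 57 genes of replication and S phase, 54 fell and 0 rose (limma; 0 higher and 57 lower at an unadjusted p under 0.05), and all 3 ΔNp73-deleted libraries lay below both controls for each of the 57 (35.7% of all genes did). The median was -1.0. Pcna, the sliding clamp of DNA polymerases, was at 443 and 472 in control and 157, 178 and 245 FPKM in ΔNp73-deleted tumours (log2 fold change -1.26, SE 0.20, adjusted p = 0.00967). Rrm2, the inducible subunit of the enzyme that makes deoxynucleotides, was at 208 and 217 FPKM in control and 36.5, 43.4 and 62.6 with ΔNp73 deleted (log2 fold change -2.17, SE 0.22, adjusted p = 0.00445). For both genes every ΔNp73-deleted library was well below the controls and replicate 1 was the lowest. Cdc6, which loads the replicative helicase, fell by 1.8 (SE 0.24, adjusted p = 0.00658), the helicase gene Mcm2 fell by 0.97 (SE 0.18, adjusted p = 0.0153), Prim1, the primase, fell by 1.51 (SE 0.14, adjusted p = 0.00361), Lig1, the ligase that joins Okazaki fragments, fell by 1.55 (SE 0.15, adjusted p = 0.00401), and E2f8, a repressor of the E2F family, fell by 1.96 (SE 0.18, adjusted p = 0.00361). With either control left out 0 of the 57 fell (limma), and without ΔNp73-deleted replicate 2, 37.

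Promoter sequences of mitosis and replication genes are shown because the members moved together. The sequences are those of RefSeq on build GRCm38.p6, matched through RefSeq accessions, and each is printed 5′ to 3′ on the strand of the gene, ending at the base before the annotated start. Capitals mark the letters of the cell cycle homology word TTTGAA in Cdk1 and of the E2F word TTTGGCGC in Mcm6, a helicase subunit gene chosen for display after its values were seen. Cdk1 lies at chr10:69352913-69353062 on the minus strand, and its 2 words start 71 and 15 bases before the start of the gene. Mcm6 lies at chr1:128359706-128359855 on the minus strand, with words at 110 and 47 bases. A match is a description of letters and not of a bound site.
Cdk1: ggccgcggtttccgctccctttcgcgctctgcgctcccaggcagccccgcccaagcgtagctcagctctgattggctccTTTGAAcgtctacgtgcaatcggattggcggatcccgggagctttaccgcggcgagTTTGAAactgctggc
Mcm6: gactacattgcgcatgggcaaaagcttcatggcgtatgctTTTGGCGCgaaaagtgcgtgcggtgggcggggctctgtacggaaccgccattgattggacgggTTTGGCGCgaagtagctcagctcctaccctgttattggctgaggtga
Over both strands of the 250 bases before the start, TTTGAA was found in 18 of the 50 mitosis genes matched (36.0%), in 10 of the 48 replication genes matched (20.8%) and in 18.3% of all 27025 genes with a promoter in the table. CCAAT was found in 35 (70.0%) and 30 (62.5%) of the same genes, against 37.5% of all. TTTGGCGC or TTTCCCGC was found in 3 mitosis genes (6.0%) and 7 replication genes (14.6%), against 1.51% of all. Here all means every gene with a promoter in the table, expressed or not, and not the genes tested. The 27025 genes have 32851 promoters, and a gene was counted if any of its promoters held the word. A gene with more promoters thus had more chances of a match. A share over the genes tested is not given, since 78.7% of them could be matched, fewer than 80%. Mcm6 itself was at 69.5 and 63.1 FPKM in control tumours against 23.8, 26.4 and 31.2 after ΔNp73 deletion (log2 fold change -1.27, SE 0.13, adjusted p = 0.00455).

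Replication-dependent histones, which cells make in S phase, gave the lowest median of any list with 5 or more members tested, -1.81, although without control replicate 1 that of erythroid and platelet genes was lower (-2.18 against -1.69). Of 56 genes tested, 47 fell and 0 rose (limma; 0 higher and 52 lower at an unadjusted p under 0.05). Their summed level was 9078 to 11000 FPKM in the controls and 1724 to 3461 in the ΔNp73-deleted libraries. Hist1h3c was at 34.2 and 33.3 in control and 6.0, 8.06 and 8.21 FPKM in ΔNp73-deleted tumours (log2 fold change -2.06, SE 0.14, adjusted p = 0.00276). Hist1h4f was at 76.4 and 66.6 FPKM in control and 8.47, 9.51 and 13.8 with ΔNp73 deleted (log2 fold change -2.67, SE 0.21, adjusted p = 0.00294). Hist1h2ak, the gene with the largest fall of all those named, was at 330.5 and 172 FPKM in control tumours against 22.7, 19.5 and 47.3 after ΔNp73 deletion (log2 fold change -3.06, SE 0.45, adjusted p = 0.0083). The 2 controls differed by almost 2-fold in Hist1h2ak and hardly in Hist1h3c, and the ΔNp73-deleted libraries were below both in each. Histone genes are near-identical copies, so reads may be split among them and single genes of this list are uncertain. In the fits without control replicate 1 or 2, 3 and 5 of the 56 fell.

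Of 20 cyclins, kinases and pocket proteins of the G1 phase, 11 fell (55.0%) and 2 rose (10.0%), against 14.4% and 15.4% of all genes. The D cyclins, which start the cycle, moved apart. Ccnd3, the D cyclin of thymocytes, was at 337 and 312 in control and 81.8, 77.3 and 122 FPKM in ΔNp73-deleted tumours (log2 fold change -1.81, SE 0.21, adjusted p = 0.0052). Ccnd2 rose by 0.74 (SE 0.09, adjusted p = 0.00531) and Ccnd1 rose by 1.16 (SE 0.15, adjusted p = 0.00613), and their libraries lay above both controls. Skp2, which targets the inhibitor p27 for destruction, fell by 1.46 (SE 0.12, adjusted p = 0.00353), while Cdkn1b, which encodes p27, also fell, from 85.6 and 87.9 to 47.9, 51 and 66.2 FPKM (-0.66, SE 0.15, adjusted p = 0.0274). Rb1, the retinoblastoma gene, fell by 0.53 (SE 0.12, adjusted p = 0.0249) and its relative Rbl1 fell by 0.63 (SE 0.13, adjusted p = 0.0195). When either control was left out, none of the 20 passed (limma; 11 fell and 2 rose with both), and without ΔNp73-deleted replicate 2, 7 fell and 2 rose.

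Many genes that repair DNA or fold chromosomes fell too. Of 51 DNA repair genes 30 fell and 0 rose (limma; 0 higher at an unadjusted p under 0.05), with a median of -0.53. Blm, the helicase lost in Bloom syndrome, was at 16.3 and 14.8 FPKM in control and 4.88, 5.1 and 5.58 with ΔNp73 deleted (log2 fold change -1.42, SE 0.10, adjusted p = 0.00276). Brca1, of homologous recombination, fell by 1.12 (SE 0.17, adjusted p = 0.00846), Fancd2 of the Fanconi pathway fell by 1.32 (SE 0.15, adjusted p = 0.005), and Xrcc6, which encodes Ku70 of end joining, fell by 1.46 (SE 0.15, adjusted p = 0.00448). Atm, the kinase that senses breaks, was at 7.01 and 7.21 FPKM in control tumours against 6.25, 7.01 and 6.35 after ΔNp73 deletion (log2 fold change -0.11, SE 0.10, adjusted p = 0.422), and its groups overlapped. Of 18 CTCF and cohesin genes 12 fell (median -0.52). Ctcf, the chromatin insulator, was at 76.3 and 67.3 in control and 31.6, 34 and 36.5 FPKM in ΔNp73-deleted tumours (log2 fold change -1.06, SE 0.11, adjusted p = 0.00412), and Rad21, a cohesin subunit, was at 111 and 109 FPKM in control and 48.5, 52.6 and 63.6 with ΔNp73 deleted (log2 fold change -1.0, SE 0.13, adjusted p = 0.00664). Every ΔNp73-deleted library was below both controls in these 2 genes, and the spread within each group was small.

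Among 46 chromatin remodelling and Polycomb genes, 15 fell (32.6%) and 2 rose (4.35%), against 14.4% and 15.4% of all genes. Ezh2, the Polycomb methyltransferase, was at 83.8 and 75.6 FPKM in control tumours against 19.9, 22.7 and 31.6 after ΔNp73 deletion (log2 fold change -1.67, SE 0.20, adjusted p = 0.00541), a larger fall than that of its partner Suz12 (-0.51, SE 0.14, adjusted p = 0.0421). Smarcc1, a BAF complex subunit, fell by 0.74 (SE 0.13, adjusted p = 0.0136), and Smarca4, its ATPase, was at 14.3 and 19 in control and 13.8, 9.55 and 9.4 FPKM in ΔNp73-deleted tumours (log2 fold change -0.57, SE 0.21, adjusted p = 0.0853). Of 57 splicing factor genes 19 fell (median -0.40), such as Srsf1 (-0.74, SE 0.19, adjusted p = 0.0378). In all of these lists few calls were made with a control left out: 1 DNA repair gene fell without either, and none of the cohesin, chromatin and splicing genes passed by limma. Without ΔNp73-deleted replicate 2 the numbers that fell were 18 for DNA repair, 8 for CTCF and cohesin, 2 for chromatin and 3 for splicing, and without replicate 1, 11 splicing genes fell, against 32 without replicate 3.

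Most genes switched on by interferon rose. Of 57 interferon-stimulated genes tested, of 59 listed, 47 rose and 0 fell (limma; 51 higher and 1 lower at an unadjusted p under 0.05), against 15.4% and 14.4% of all genes. The median was 1.53, and the medians of the single ΔNp73-deleted libraries against the control mean were 1.52, 1.81 and 1.0. Irf7, the transcription factor that amplifies the type I interferon response, was at 8.25 and 9.1 FPKM in control and 74.5, 84.9 and 35.7 with ΔNp73 deleted (log2 fold change 2.68, SE 0.37, adjusted p = 0.00727). Isg15, a ubiquitin-like modifier, was at 22.7 and 16 FPKM in control tumours against 104, 177 and 47.9 after ΔNp73 deletion (log2 fold change 2.28, SE 0.53, adjusted p = 0.0279). Replicate 3 was the lowest of the ΔNp73-deleted libraries and replicate 2 the highest in both genes, and all 3 were above the controls.

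Oas2 was at 0.881 and 1.29 in control and 10.3, 13.2 and 7.2 FPKM in ΔNp73-deleted tumours (log2 fold change 2.4, SE 0.25, adjusted p = 0.00443). It and Oas1g (2.3, SE 0.25, adjusted p = 0.00467) encode sensors of double-stranded RNA that activate the antiviral ribonuclease RNase L. Zbp1, a sensor of Z-form nucleic acid, rose by 2.18 (SE 0.20, adjusted p = 0.00361), Ifitm3, which blocks the entry of viruses, rose by 2.54 (SE 0.19, adjusted p = 0.00287), and Ifit1, which binds viral RNA, rose by 1.65 (SE 0.42, adjusted p = 0.0351). Psmb8, an immunoproteasome subunit also expressed without interferon, was at 110.2 and 98.6 FPKM in control and 114, 123 and 108 with ΔNp73 deleted (log2 fold change 0.14, SE 0.10, adjusted p = 0.323) and its groups overlapped. Both groups received an adenovirus, and how much virus each tumour received is not given. With control replicate 1 or 2 left out, 1 gene of the list rose in each case.

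Of 8 genes for interferons, their receptors and kinases tested, of 14 listed, 4 rose and 1 fell, against 15.4% and 14.4% of all genes. The type II receptor chains moved apart: Ifngr1, which binds the ligand, was at 119 and 127 FPKM in control tumours against 81.5, 78 and 76.6 after ΔNp73 deletion (log2 fold change -0.64, SE 0.08, adjusted p = 0.00651), and Ifngr2, the signalling chain, was at 16.7 and 18.6 in control and 28.1, 32.1 and 28.2 FPKM in ΔNp73-deleted tumours (log2 fold change 0.71, SE 0.10, adjusted p = 0.00848). The type I receptor gene Ifnar1 was at 13 and 13.9 FPKM in control and 14.2, 15.4 and 14.4 with ΔNp73 deleted (log2 fold change 0.12, SE 0.09, adjusted p = 0.34). The first fell, the second rose, and the last did not pass although its groups did not overlap. In fits with 1 control, none of the 8 passed by limma, and without ΔNp73-deleted replicate 2, 2 rose and 1 fell.

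Promoters of 2 interferon-stimulated genes are shown with the core of the interferon-stimulated response element, GAAA, any 2 bases and GAAA, in capitals on either strand. They are RefSeq sequences of build GRCm38.p6 on the strand of the gene, ending at the base before its start. Isg15 lies at chr4:156200819-156200968 on the minus strand and holds 3 overlapping matches, which start 78, 72 and 66 bases before the gene. Ifit1 lies at chr19:34640739-34640888 on the plus strand and holds 2 matches on the opposite strand, at 104 and 85 bases.
Isg15: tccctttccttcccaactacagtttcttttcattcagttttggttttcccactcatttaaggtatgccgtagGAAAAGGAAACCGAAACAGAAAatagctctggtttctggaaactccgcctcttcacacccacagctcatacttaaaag
Ifit1: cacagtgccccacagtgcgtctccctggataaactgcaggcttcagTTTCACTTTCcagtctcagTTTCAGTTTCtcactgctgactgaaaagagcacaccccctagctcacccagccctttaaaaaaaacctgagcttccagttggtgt
Counting a gene if any of its promoters matched, the core was found in 3.46% of all 27025 genes with a promoter in the table. A share for the list is not given, since 41 of its 57 genes (71.9%) could be matched, fewer than 80%.

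Most macrophage and monocyte genes rose, and their median was the highest of the lists tested, although with a pseudocount of 0.1 that of neutrophil genes was higher (2.05 against 2.0). Of 41 tested 36 rose and 0 fell (limma; 40 higher and 0 lower at an unadjusted p under 0.05), with a median of 1.89 and library medians of 2.14, 1.97 and 1.54. Their summed level was 504 to 560 FPKM in the controls and 1584 to 2367 in the ΔNp73-deleted libraries. Csf1r, the receptor for the macrophage growth factor, was at 9.46 and 8.99 FPKM in control tumours against 35.2, 36.5 and 31 after ΔNp73 deletion (log2 fold change 1.78, SE 0.10, adjusted p = 0.00223). Cd68, a macrophage lysosomal protein, was at 27.4 and 27.3 in control and 114, 92.3 and 79.4 FPKM in ΔNp73-deleted tumours (log2 fold change 1.75, SE 0.16, adjusted p = 0.00361). Ccr2, the receptor for CCL2 and CCL7 on monocytes, was at 4.01 and 3.81 FPKM in control and 44.5, 36.4 and 38.2 with ΔNp73 deleted (log2 fold change 3.05, SE 0.11, adjusted p = 0.00109). The groups were far apart in all 3 genes, and the ΔNp73-deleted libraries differed little from each other.

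Fcgr3 rose by 2.27 (SE 0.24, adjusted p = 0.00466) and Fcgr4 rose by 3.88 (SE 0.34, adjusted p = 0.00353), both antibody receptors, and Sirpa, the receptor for the signal CD47, rose by 1.75 (SE 0.11, adjusted p = 0.00247). Hmox1, which breaks down haem, was at 11.4 and 11.9 FPKM in control tumours against 54.6, 66 and 52 after ΔNp73 deletion (log2 fold change 2.2, SE 0.12, adjusted p = 0.00223). Csf1r, Cd68 and Fcgr3 were all above 8 FPKM in both controls, so none of these defining markers was near 0 in any library. More of these cells, more RNA per cell and changes within the cells cannot be told apart in this tissue, and the part of the macrophage genes in the other rises was not tested. Without control replicate 1 or 2, 6 and 7 of the 41 rose.

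Most chemokine and chemokine receptor genes rose. Of 44 tested 28 rose and 4 fell (median 1.18). Beside Ccl2 and Ccl7, the ligand gene Ccl6 was at 7.45 and 6.71 in control and 144, 72.1 and 89.8 FPKM in ΔNp73-deleted tumours (log2 fold change 3.61, SE 0.29, adjusted p = 0.00316) and Cxcl1, a neutrophil attractant, was at 1.35 and 0.883 FPKM in control and 10.6, 8.96 and 13.8 with ΔNp73 deleted (log2 fold change 2.51, SE 0.20, adjusted p = 0.00316). Cxcl10, induced by interferon, was at 18.1 and 18.7 FPKM in control tumours against 47.2, 114 and 42.5 after ΔNp73 deletion (log2 fold change 1.68, SE 0.42, adjusted p = 0.0346), with replicate 2 more than 2-fold above the others. Cxcr2, the neutrophil receptor for CXCL1, rose by 1.71 (SE 0.16, adjusted p = 0.00361), and Pf4, platelet factor 4, rose by 2.97 (SE 0.36, adjusted p = 0.00554). Cxcl12, made by stroma, rose by 0.37 (SE 0.08, adjusted p = 0.0208). The 4 that fell were Ccl17, Ccl25, Ccr9 and Cxcr4, the last 2 of them receptors of thymocytes; these 4 are named after their values were seen. In the fits without control replicate 1 or 2, 5 and 7 of the 44 rose and none fell.

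Most complement, lysosomal and phagocyte genes tested rose too. Of 20 complement genes 16 rose (median 1.52), among them the 3 chains of C1q, which starts the classical pathway. C1qb was at 62.4 and 68.7 in control and 205, 212 and 174 FPKM in ΔNp73-deleted tumours (log2 fold change 1.57, SE 0.12, adjusted p = 0.00294). C3, the central component, rose by 1.41 (SE 0.15, adjusted p = 0.0046), and C5ar1, the receptor for the fragment C5a, was at 0.491 and 0.0075 FPKM in control and 16.3, 9.12 and 12.9 with ΔNp73 deleted (log2 fold change 3.46, SE 0.28, adjusted p = 0.00317). Cfd, the complement factor made by fat cells, was at 19.5 and 98.2 FPKM in control tumours against 104, 14.3 and 14.1 after ΔNp73 deletion (log2 fold change -0.64, SE 1.07, adjusted p = 0.672) and followed the fat genes described below. Of 44 lysosomal genes 31 rose (median 0.76). The cysteine protease genes Ctss (2.38, SE 0.24, adjusted p = 0.00445), Lgmn (2.74, SE 0.20, adjusted p = 0.00276) and Ctsb (1.54, SE 0.18, adjusted p = 0.0052) rose more than the membrane protein gene Lamp1 (0.84, SE 0.15, adjusted p = 0.0128). Without control replicate 1 or 2, 4 and 5 complement genes and 5 and 5 lysosomal genes rose.

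Of 23 genes of the phagocyte NADPH oxidase and the inflammasome 18 rose and 1 fell (median 0.89). Cybb, the catalytic subunit of the oxidase, was at 12.6 and 14 in control and 62.1, 61.4 and 45.4 FPKM in ΔNp73-deleted tumours (log2 fold change 1.99, SE 0.16, adjusted p = 0.00317), and Ncf1 (1.6, SE 0.10, adjusted p = 0.00276), a cytosolic subunit, rose with it. Il1b, the cytokine cut by caspase-1, was at 0.834 and 0.894 FPKM in control and 14.3, 15 and 8.19 with ΔNp73 deleted (log2 fold change 2.81, SE 0.26, adjusted p = 0.00361). Casp1 itself rose by 1.53 (SE 0.10, adjusted p = 0.00276) and Nlrp3, a sensor, rose by 1.11 (SE 0.19, adjusted p = 0.0121). The gene that fell was Pycard, the inflammasome adaptor, named after its values were seen. Of 23 Toll-like receptor and adaptor genes 15 rose (median 1.29), such as Tlr8 (1.7, SE 0.16, adjusted p = 0.00361), Tlr4 (1.54, SE 0.14, adjusted p = 0.00353) and the adaptor Myd88 (1.36, SE 0.12, adjusted p = 0.00361). In the fits without control replicate 1 or 2, 3 and 5 oxidase and inflammasome genes and 0 and 1 Toll-like receptor genes rose. Without ΔNp73-deleted replicate 2, 10 oxidase and inflammasome genes rose.

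Of 27 genes of leukotriene and prostaglandin synthesis 10 rose and 2 fell (median 0.36). Ptgs1, cyclooxygenase 1, was at 3.28 and 3.36 FPKM in control tumours against 8.95, 9.63 and 9.09 after ΔNp73 deletion (log2 fold change 1.24, SE 0.09, adjusted p = 0.00276), and Pla2g4a, the phospholipase that releases arachidonic acid, was at 2.92 and 2.71 in control and 7.99, 9.4 and 7.04 FPKM in ΔNp73-deleted tumours (log2 fold change 1.25, SE 0.14, adjusted p = 0.00463). Alox5, the lipoxygenase that makes leukotrienes, was at 0.761 and 1.28 FPKM in control and 1.84, 1.18 and 1.65 with ΔNp73 deleted (log2 fold change 0.34, SE 0.19, adjusted p = 0.209), with overlapping groups. After removal of either control, 2 of the 27 rose. Of 24 neutrophil genes 14 rose (median 1.70). S100a8, an abundant neutrophil calcium-binding protein, was at 96.8 and 458 FPKM in control tumours against 671, 1101 and 727 after ΔNp73 deletion (log2 fold change 1.94, SE 0.64, adjusted p = 0.0694), and its partner S100a9 was at 40.2 and 124 in control and 212, 304 and 329 FPKM in ΔNp73-deleted tumours (log2 fold change 1.95, SE 0.48, adjusted p = 0.0316). Control replicate 2 stood nearer to the ΔNp73-deleted libraries than control replicate 1 in both. Csf3r, the receptor of the neutrophil growth factor, was at 0.284 and 0.487 FPKM in control and 3.88, 6.58 and 4.27 with ΔNp73 deleted (log2 fold change 2.07, SE 0.22, adjusted p = 0.00455). The summed level of the list was 196 to 716 FPKM in the controls and 1221 to 1817 in the ΔNp73-deleted libraries. S100a8, which did not pass, and S100a9 made up most of this sum in every library. S100a8 alone was 96.8 of 196 and 458 of 716 FPKM in the controls. In ΔNp73-deleted replicates 1, 2 and 3 it was 671 of 1221, 1101 of 1817 and 727 of 1378. Without control replicate 1 or 2, 2 and 6 of the 24 rose.

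Antigen-presenting cells gave smaller changes. Of 16 genes of MHC class II and its loading 12 rose and 1 fell (median 0.59). H2-Ab1 was at 299.5 and 306 FPKM in control tumours against 474, 458 and 508 after ΔNp73 deletion (log2 fold change 0.66, SE 0.09, adjusted p = 0.00692) and Cd74, the invariant chain, was at 734 and 835 in control and 1158, 1144 and 1248 FPKM in ΔNp73-deleted tumours (log2 fold change 0.59, SE 0.10, adjusted p = 0.0128). Ifi30, the thiol reductase that opens antigens, was at 128 and 149.8 FPKM in control and 399.8, 482 and 398 with ΔNp73 deleted (log2 fold change 1.61, SE 0.13, adjusted p = 0.00317). Of 22 dendritic cell genes 12 rose and 3 fell (median 0.54). Irf8, a factor of their development, rose by 1.04 (SE 0.08, adjusted p = 0.0031), Cd86, a costimulator, rose by 1.34 (SE 0.14, adjusted p = 0.00443), and Xcr1, a marker of cross-presenting cells, rose by 0.60 (SE 0.16, adjusted p = 0.0404), while Siglech of plasmacytoid cells was at 3.22 and 3.51 FPKM in control tumours against 4.49, 4.3 and 2.38 after ΔNp73 deletion (log2 fold change 0.08, SE 0.23, adjusted p = 0.806). In the fits without control replicate 1 or 2, 2 and 1 MHC class II genes and 1 and 1 dendritic cell genes rose. In the fit without ΔNp73-deleted replicate 2, 5 dendritic cell genes rose.

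Among other lymphocytes, 9 of 21 cytotoxic and NK cell genes rose (median 0.82). Gzmb, granzyme B, was at 1.35 and 1.37 in control and 22, 19.5 and 4.22 FPKM in ΔNp73-deleted tumours (log2 fold change 2.52, SE 0.65, adjusted p = 0.0372), so replicate 3 stood well below the other 2 of its group. Prf1, perforin, was at 1.86 and 2.08 FPKM in control and 4.49, 3.48 and 1.4 with ΔNp73 deleted (log2 fold change 0.39, SE 0.35, adjusted p = 0.428), with replicate 3 below the controls. Nkg7, a cytotoxic granule protein, rose by 1.23 (SE 0.12, adjusted p = 0.00401). Of 21 B cell genes 9 rose and 1 fell (median 0.49). Ms4a1, the B cell marker CD20, was at 6.93 and 7.08 FPKM in control tumours against 10.1, 10.3 and 8.2 after ΔNp73 deletion (log2 fold change 0.39, SE 0.12, adjusted p = 0.0607) and did not pass. Of the 9, Igj, the joining chain of antibodies, rose by 1.33 (SE 0.09, adjusted p = 0.00276), and Sdc1, syndecan-1, which plasma cells and epithelia carry, rose by 0.78 (SE 0.11, adjusted p = 0.0081). With either control left out none of the cytotoxic genes passed by limma and 1 B cell gene rose. Without ΔNp73-deleted replicate 3, 15 cytotoxic genes rose, and without replicate 2, 6 of each list.

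Genes of fibroblasts and the extracellular matrix rose by a median of 1.14. Of 49 tested 41 rose and 1 fell. Col1a1, the main chain of collagen I, was at 4.59 and 4.29 in control and 30.9, 37 and 50.3 FPKM in ΔNp73-deleted tumours (log2 fold change 2.87, SE 0.21, adjusted p = 0.00276). Col3a1 was at 15.1 and 14.9 FPKM in control and 77.1, 68.2 and 114 with ΔNp73 deleted (log2 fold change 2.42, SE 0.22, adjusted p = 0.00361). In these 2 collagen genes replicate 3 was the highest of the ΔNp73-deleted libraries, while the medians of the list in the single libraries were 1.2, 1.19 and 0.95, lowest in replicate 3. Lox, which crosslinks collagen, rose by 2.25 (SE 0.12, adjusted p = 0.00223), Vim, vimentin, rose by 1.6 (SE 0.11, adjusted p = 0.00276), and Pdgfra, a receptor of mesenchymal cells, rose by 0.96 (SE 0.25, adjusted p = 0.0373). The gene that fell was Thy1, which thymocytes also express at a high level. Thy1 made up most of the summed level of the list in the controls, 1222 of 1745 FPKM and 1479 of 1968, and less of it in the ΔNp73-deleted libraries, 462 to 642 of 2100 to 2124. When either control was left out, 8 of the 49 rose.

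Of 27 genes of the TGF-β and BMP pathway 15 rose (median 0.70). Among receptors and mediators, Tgfbr2 was at 12.4 and 15.1 FPKM in control tumours against 21.7, 24.3 and 25.6 after ΔNp73 deletion (log2 fold change 0.76, SE 0.12, adjusted p = 0.011), Smad1 rose by 0.56 (SE 0.08, adjusted p = 0.00863), and the inhibitor Smad7 rose by 0.79 (SE 0.10, adjusted p = 0.00605). Id2, a target that blocks E proteins, was at 34.8 and 38.3 in control and 80.01, 83.5 and 94.4 FPKM in ΔNp73-deleted tumours (log2 fold change 1.21, SE 0.11, adjusted p = 0.00353). The ligand gene Tgfb1 was at 58.8 and 57.6 FPKM in control and 64, 80.3 and 81.1 with ΔNp73 deleted (log2 fold change 0.36, SE 0.13, adjusted p = 0.0864) and the mediator Smad3 was at 10.9 and 11.1 FPKM in control tumours against 10.2, 11.2 and 12 after ΔNp73 deletion (log2 fold change 0.01, SE 0.10, adjusted p = 0.928). Of 26 endothelial genes 12 rose and 1 fell (median 0.71). Cdh5, the cadherin of vessel walls, was at 3.17 and 3.52 in control and 12.2, 10.6 and 6.9 FPKM in ΔNp73-deleted tumours (log2 fold change 1.29, SE 0.23, adjusted p = 0.0133), and Plvap, of fenestrated vessels, rose by 1.19 (SE 0.19, adjusted p = 0.0101). Pecam1, CD31, was at 13.6 and 19.9 FPKM in control and 21.6, 18.8 and 15.5 with ΔNp73 deleted (log2 fold change 0.16, SE 0.20, adjusted p = 0.578) and the VEGF receptor gene Kdr was at 0.839 and 1.52 FPKM in control tumours against 3.1, 2.87 and 1.05 after ΔNp73 deletion (log2 fold change 0.57, SE 0.34, adjusted p = 0.25), both with overlapping groups. Pdpn, which lymphatic endothelium and stroma share, was at 5.98 and 5.74 in control and 42.8, 44.2 and 30.8 FPKM in ΔNp73-deleted tumours (log2 fold change 2.54, SE 0.17, adjusted p = 0.00276). In fits with 1 control, none of the TGF-β and BMP genes passed by limma and 1 endothelial gene rose. Without ΔNp73-deleted replicate 2, 10 and 6 rose.

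Of 31 epithelial and thymic epithelial genes 13 rose and 3 fell (median 0.45). Krt5, a keratin of basal and medullary thymic epithelium, was at 76.1 and 76.9 FPKM in control and 145, 173 and 113 with ΔNp73 deleted (log2 fold change 0.88, SE 0.18, adjusted p = 0.0205). Cdh1, E-cadherin, was at 11 and 11.3 FPKM in control tumours against 33.7, 34.7 and 29.7 after ΔNp73 deletion (log2 fold change 1.47, SE 0.10, adjusted p = 0.00276). Foxn1, the master factor of thymic epithelium, was at 5.85 and 4.94 in control and 5.86, 6.82 and 6.1 FPKM in ΔNp73-deleted tumours (log2 fold change 0.19, SE 0.12, adjusted p = 0.265). The 3 that fell were Psmb11, the thymoproteasome subunit of cortical epithelium, Prss16, a protease of the same cells, and Ly6k; they are named after their values were seen. After removal of either control, 1 of the 31 rose. Of 23 plexin, semaphorin and neuropilin genes 10 rose and 1 fell (median 0.32), with Plxnb2 at 3.83 and 3.59 FPKM in control and 13.2, 13.5 and 13 with ΔNp73 deleted (log2 fold change 1.6, SE 0.09, adjusted p = 0.00223). With either control left out 1 of these rose, and without ΔNp73-deleted replicates 1 or 2, 5 and 3.

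Fat genes followed the library and not the group. Adipoq, the fat cell hormone adiponectin, was at 6.12 and 40.9 FPKM in control tumours against 68.3, 5.27 and 3.48 after ΔNp73 deletion (log2 fold change -0.47, SE 1.36, adjusted p = 0.811), high in control replicate 2 and ΔNp73-deleted replicate 1. Fabp4, a fatty acid carrier, was at 103 and 683 in control and 2086, 156 and 153 FPKM in ΔNp73-deleted tumours (log2 fold change 0.47, SE 1.39, adjusted p = 0.814). Of 15 fat genes tested 0 passed (limma; 0 at an unadjusted p under 0.05), and the summed level was 222 and 1215 FPKM in the controls and 2803, 259 and 268 in the ΔNp73-deleted libraries. Globin genes were also high in control replicate 2, with Hbb-b1 at 26 and 136 FPKM in control and 32.5, 19.99 and 13.1 with ΔNp73 deleted (log2 fold change -1.5, SE 0.72, adjusted p = 0.165); Hbb and Hba genes are near-identical copies and uncertain singly. Of 5 lung and pancreas genes tested, of 19 listed, 1 fell, the insulin gene Ins2 (at 1.38 and 1.07 FPKM in control tumours against 0.429, 0.476 and 0.23 after ΔNp73 deletion, log2 fold change -0.69, SE 0.16, adjusted p = 0.0273), and of 5 muscle genes tested, of 22 listed, 2 fell. Over all genes tested 14.4% fell, and lists of 5 genes are too small to be set against that share. When either control was left out, none of these muscle, lung and pancreas genes passed by limma, and without ΔNp73-deleted replicate 2, 1 muscle gene fell.

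**Figure D3:**
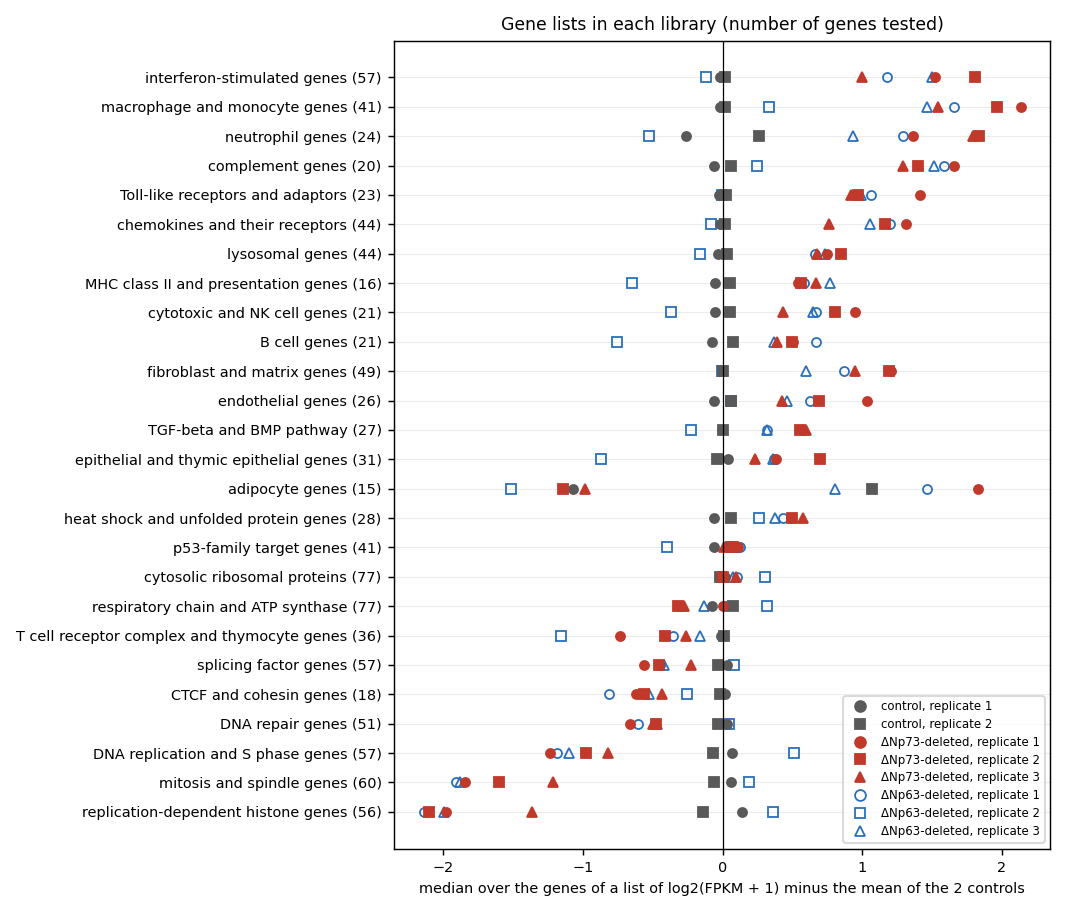
Median over the genes of each list (y axis, with the number tested) of log2(FPKM + 1) minus the mean of the 2 controls (x axis), for each library. All 3 ΔNp73-deleted libraries lie right of both controls for the interferon and macrophage lists and left for the mitosis, replication and histone lists, while fat genes split by library, at 1.83, -1.14 and -0.99 in ΔNp73-deleted replicates 1, 2 and 3.

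Genes of the tumour's own lineage fell in part. Of 36 genes of the T cell receptor complex and thymocytes 13 fell and 4 rose (median -0.42), and their summed level was 7499 to 8190 FPKM in the controls and 3917 to 5896 in the ΔNp73-deleted libraries. Thy1 was at 1222 and 1479 in control and 462, 575 and 642 FPKM in ΔNp73-deleted tumours (log2 fold change -1.28, SE 0.17, adjusted p = 0.00692). Cd8a was at 245 and 245 FPKM in control and 93.4, 128 and 155 with ΔNp73 deleted (log2 fold change -0.99, SE 0.21, adjusted p = 0.0225). Ptcra, the pre-T cell receptor chain of immature thymocytes, was at 12.7 and 13.4 FPKM in control tumours against 3.85, 2.43 and 4.28 after ΔNp73 deletion (log2 fold change -1.66, SE 0.20, adjusted p = 0.00558). All 3 ΔNp73-deleted libraries were below the controls in these genes.

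Rag1, which recombines antigen receptor genes, was at 662 and 965 in control and 308, 404 and 636 FPKM in ΔNp73-deleted tumours (log2 fold change -0.90, SE 0.33, adjusted p = 0.0915), and did not pass; its controls differed from each other. Cd3e was at 358 and 430.1 FPKM in control and 235, 300.4 and 363 with ΔNp73 deleted (log2 fold change -0.41, SE 0.20, adjusted p = 0.166), and replicate 3 reached the lower control. The 4 that rose were Cd7, Cd44, Cd69 and Il7r, the last 2 named after their values were seen. Cd44, an adhesion receptor of activated T cells that myeloid cells and stroma also carry, was at 12.9 and 16.6 FPKM in control tumours against 55.1, 44.2 and 45.2 after ΔNp73 deletion (log2 fold change 1.64, SE 0.15, adjusted p = 0.00361), and Cd7 was at 23.6 and 21.1 in control and 51.8, 53.2 and 48.4 FPKM in ΔNp73-deleted tumours (log2 fold change 1.16, SE 0.10, adjusted p = 0.00317). Without control replicate 1 or 2, 1 gene rose and none fell by limma in each case, and without ΔNp73-deleted replicate 2, 3 rose and 5 fell.

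Of 30 transcription factors of the T lineage 8 fell (26.7%) and 6 rose (20.0%), against 14.4% and 15.4% of all genes. Their median was -0.08, near that of all genes, and 0.01 without ΔNp73-deleted replicate 1. Tcf7, which encodes TCF-1, was at 1177 and 1158 FPKM in control and 482, 636 and 766 with ΔNp73 deleted (log2 fold change -0.92, SE 0.20, adjusted p = 0.0231), and Bcl11b, which commits cells to the T lineage, was at 87.4 and 90.7 FPKM in control tumours against 41.6, 39.3 and 54 after ΔNp73 deletion (log2 fold change -0.98, SE 0.15, adjusted p = 0.00929). Lef1, the relative of Tcf7, was at 179 and 178 in control and 131, 171 and 235 FPKM in ΔNp73-deleted tumours (log2 fold change -0.04, SE 0.24, adjusted p = 0.91). The first 2 fell with no overlap and the last did not pass, with replicate 3 above and replicate 1 below the controls. Among those that rose were Lmo2 (1.0, SE 0.13, adjusted p = 0.00635) and Lyl1 (1.07, SE 0.12, adjusted p = 0.00515), factors of early progenitors, Runx3 (0.81, SE 0.12, adjusted p = 0.00838) and Id2. In fits with 1 control, none of the 30 passed by limma, and without ΔNp73-deleted replicate 2, 5 rose and 2 fell.

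In the Notch pathway, which drives T cell fate, 9 of 28 genes rose and 3 fell (median 0.20). The receptor genes differed in direction: Notch1 was at 14.6 and 15.1 FPKM in control and 11.2, 9.71 and 10.7 with ΔNp73 deleted (log2 fold change -0.46, SE 0.10, adjusted p = 0.0212) and Notch2 was at 6.55 and 6.42 FPKM in control tumours against 12.3, 10.5 and 11.2 after ΔNp73 deletion (log2 fold change 0.72, SE 0.10, adjusted p = 0.0074). Of the targets, Hes1 rose by 0.67 (SE 0.13, adjusted p = 0.0162) and Hey1 rose by 0.93 (SE 0.12, adjusted p = 0.00614), while Ptcra fell and Dtx1 was at 4.28 and 4.71 in control and 3.93, 3.86 and 3.89 FPKM in ΔNp73-deleted tumours (log2 fold change -0.17, SE 0.10, adjusted p = 0.235). Lfng, the glycosyltransferase that tunes Notch1, rose by 0.97 (SE 0.09, adjusted p = 0.00361). In the Wnt pathway 5 of 25 genes rose (20.0%) and 4 fell (16%), shares near those of all genes (15.4% and 14.4%), with a median of 0.12. Its receptor genes Fzd2 (0.72, SE 0.12, adjusted p = 0.0123), Fzd6 (0.84, SE 0.15, adjusted p = 0.0139) and Fzd7 (1.02, SE 0.14, adjusted p = 0.00744) rose and the target Axin2 (-0.45, SE 0.11, adjusted p = 0.0333) fell, while Ctnnb1, β-catenin, was at 58.3 and 57.5 FPKM in control and 62, 64 and 65.9 with ΔNp73 deleted (log2 fold change 0.14, SE 0.08, adjusted p = 0.225). After removal of either control, none of the Notch and Wnt genes passed by limma. In the fit without ΔNp73-deleted replicate 2, 4 Notch genes rose and 2 fell, and 5 Wnt genes rose and none fell.

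Targets of the p53 family, which TAp73 can also switch on, did not move one way. Of 41 tested 9 rose (22.0%) and 5 fell (12.2%), against 15.4% and 14.4% of all genes, with a median of 0.04, which was -0.06 without control replicate 1. Cdkn1a, which encodes the cell cycle inhibitor p21, was at 12.7 and 10.5 FPKM in control tumours against 32.4, 30.03 and 10.7 after ΔNp73 deletion (log2 fold change 0.87, SE 0.47, adjusted p = 0.206), so replicates 1 and 2 stood above the controls and replicate 3 did not. Of the apoptotic targets, Pmaip1, which encodes NOXA, was at 3.02 and 3.49 in control and 5.53, 6.38 and 6.26 FPKM in ΔNp73-deleted tumours (log2 fold change 0.73, SE 0.11, adjusted p = 0.00929), and Bbc3, which encodes PUMA, was at 4.28 and 4.74 FPKM in control and 3.2, 2.72 and 2.58 with ΔNp73 deleted (log2 fold change -0.53, SE 0.12, adjusted p = 0.0263). NOXA rose and PUMA fell. Perp, a desmosome and apoptosis gene of epithelia, rose by 1.17 (SE 0.17, adjusted p = 0.00786), Dram1, a lysosomal membrane protein, rose by 1.39 (SE 0.18, adjusted p = 0.00651), and Gtse1, which mitotic cells make, fell by 1.42 (SE 0.16, adjusted p = 0.00501). Mdm2, the ligase that degrades p53, was at 22.1 and 23.8 FPKM in control tumours against 19.2, 19.5 and 19.9 after ΔNp73 deletion (log2 fold change -0.22, SE 0.08, adjusted p = 0.0969), and Dicer1, the microRNA-processing nuclease, was at 9.6 and 9.86 in control and 7.04, 8.43 and 8.68 FPKM in ΔNp73-deleted tumours (log2 fold change -0.25, SE 0.11, adjusted p = 0.149). With either control left out none of the 41 passed by limma, and without ΔNp73-deleted replicate 2, 7 rose and 2 fell.

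Trp53 transcripts were at 81 and 67.6 FPKM in control and 66.1, 75.9 and 11 with ΔNp73 deleted (log2 fold change -0.92, SE 0.82, adjusted p = 0.418), although all mice are labelled p53-/-. The labels do not say which part the null allele lacks, so this checks nothing. The low Trp53 value in replicate 3 stood in the library with the lowest Cdkn1a of its group, 10.7 FPKM. The controls, with high Trp53, also had low Cdkn1a, at 12.7 and 10.5 FPKM. A link between the 2 genes was not tested. The highest Trp63 entry was at 5.21 and 3.38 FPKM in control tumours against 13.8, 11.3 and 6.38 after ΔNp73 deletion (log2 fold change 1.08, SE 0.32, adjusted p = 0.0541). Every ΔNp73-deleted library was above the controls for this entry, and the difference did not pass. The groups overlapped in 2 of the other 3 Trp63 entries.

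Of 34 BCL2 family and caspase genes 9 rose (26.5%) and 6 fell (17.6%), with a median of 0.16, against 15.4% and 14.4% of all genes. Bcl2 was at 13 and 11.1 in control and 17.5, 17.5 and 17.3 FPKM in ΔNp73-deleted tumours (log2 fold change 0.50, SE 0.10, adjusted p = 0.0174) and Bcl2l1, which encodes BCL-XL, was at 52.7 and 50.9 FPKM in control and 23.6, 27.6 and 30.3 with ΔNp73 deleted (log2 fold change -0.91, SE 0.12, adjusted p = 0.00698), so these inhibitors of apoptosis moved apart. Bcl2a1b, an inhibitor of blood cells with near-identical copies, rose by 1.38 (SE 0.12, adjusted p = 0.00353). The caspase gene Casp2 fell by 0.64 (SE 0.10, adjusted p = 0.0107), while the initiator Casp8 rose by 0.61 (SE 0.09, adjusted p = 0.00865). Bcl2l11, which encodes BIM, was at 9.9 and 11.1 FPKM in control tumours against 11.2, 12.5 and 15.7 after ΔNp73 deletion (log2 fold change 0.29, SE 0.16, adjusted p = 0.205). Of 19 genes of senescence and CDK inhibition 5 rose (26.3%) and 7 fell (36.8%). Cdkn2a, which encodes p16 and p19ARF, was at 0.722 and 0.179 in control and 0.948, 0.534 and 0.818 FPKM in ΔNp73-deleted tumours (log2 fold change 0.30, SE 0.22, adjusted p = 0.329), Lmnb1, lamin B1, fell by 1.38 (SE 0.21, adjusted p = 0.00903) and Hmgb2, a chromatin protein of dividing cells, fell by 2.09 (SE 0.24, adjusted p = 0.00513). When either control was left out, none of these 2 lists passed by limma, and without ΔNp73-deleted replicate 2, 5 apoptosis genes rose and 2 fell, and 3 senescence genes rose and 5 fell.

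Amylin, a hormone of pancreatic beta cells encoded by Iapp, acts through the calcitonin receptor joined to a RAMP protein. Iapp was at 4.92 and 3.41 FPKM in control and 8.4, 5.94 and 7.68 with ΔNp73 deleted (log2 fold change 0.70, SE 0.19, adjusted p = 0.0428). All 3 ΔNp73-deleted libraries were above the controls, and the rise is one of 1990. Ramp1 was at 33.4 and 30.6 FPKM in control tumours against 18.6, 21.3 and 24.6 after ΔNp73 deletion (log2 fold change -0.56, SE 0.14, adjusted p = 0.0308), Ramp2 was at 2.23 and 2.79 in control and 6.38, 4.18 and 5.54 FPKM in ΔNp73-deleted tumours (log2 fold change 0.85, SE 0.18, adjusted p = 0.0216) and Ramp3 was at 2.95 and 1.77 FPKM in control and 2.4, 3.78 and 2.56 with ΔNp73 deleted (log2 fold change 0.23, SE 0.22, adjusted p = 0.469). The first fell, the second rose, and Ramp3 did not pass, with overlapping groups. Ramp2 also belongs to the endothelial list, which rose in part. In the ΔNp63-deleted libraries Iapp was at 11.2, 7.34 and 9.17 FPKM (log2 difference, ΔNp73-deleted minus ΔNp63-deleted, -0.29, SE 0.21, adjusted p = 0.656).

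Most metabolic genes did not pass the test, and neither did 9065 of all 12921 genes. Of 38 genes of glycolysis and the pentose phosphate pathway 6 rose (15.8%) and 2 fell (5.26%), against 15.4% and 14.4% of all genes. The share that rose was thus near that of all genes. Their median was 0.05, and -0.03 without control replicate 1. Slc2a1, the glucose transporter GLUT1, was at 11.4 and 10.5 FPKM in control tumours against 18.2, 21.4 and 14.6 after ΔNp73 deletion (log2 fold change 0.66, SE 0.16, adjusted p = 0.0332), Pgam1, a glycolytic mutase, rose by 0.67 (SE 0.09, adjusted p = 0.00721), and Pkm2, pyruvate kinase, rose by 0.40 (SE 0.09, adjusted p = 0.0276). Hk3, the hexokinase of myeloid cells, rose by 1.62 (SE 0.20, adjusted p = 0.00571), while Hk1 was at 18.2 and 18 in control and 15.4, 18.1 and 18.4 FPKM in ΔNp73-deleted tumours (log2 fold change -0.06, SE 0.11, adjusted p = 0.687). Ldhb fell by 0.63 (SE 0.10, adjusted p = 0.00921) and Ldha was at 167 and 184 FPKM in control and 224, 204 and 211 with ΔNp73 deleted (log2 fold change 0.28, SE 0.09, adjusted p = 0.0668).

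Of 25 TCA cycle genes 2 rose and 1 fell (median -0.15, and 0.06 without control replicate 2), and of 77 genes of the respiratory chain and ATP synthase 1 rose and 6 fell (median -0.22). Of 77 cytosolic ribosomal proteins 7 rose and 1 fell (median 0.03), and of 39 proteasome subunits 3 rose and 3 fell. In each of these lists both shares were below those of all genes, 15.4% and 14.4%. Of 40 genes of the MYC network and ribosome biogenesis 2 rose and 5 fell, and Myc was at 21.7 and 18.1 FPKM in control tumours against 15.4, 20.8 and 20.9 after ΔNp73 deletion (log2 fold change -0.07, SE 0.17, adjusted p = 0.779), with overlapping groups. In fits with 1 control, none of the genes of these lists or of glycolysis passed by limma. Without ΔNp73-deleted replicate 1, 19 respiratory genes and 2 ribosomal proteins passed, the first all lower, and without replicate 2, 1 and 0. Without replicate 2, 3 glycolysis genes rose, 1 TCA cycle gene rose, 1 proteasome gene rose and 1 fell, and 1 MYC network gene rose and 2 fell.

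Stress genes rose in part. Of 31 AP-1 and immediate early genes 14 rose (45.2%) and 1 fell (3.23%), against 15.4% and 14.4% of all genes (median 0.31). Fos was at 2.13 and 2.3 in control and 8.07, 6.52 and 6.97 FPKM in ΔNp73-deleted tumours (log2 fold change 1.34, SE 0.12, adjusted p = 0.00353), and Jun, its partner in AP-1, was at 3.6 and 3.52 FPKM in control and 14.5, 11.8 and 11.3 with ΔNp73 deleted (log2 fold change 1.56, SE 0.13, adjusted p = 0.00317). Socs3, the feedback inhibitor of cytokine signalling, was at 3.2 and 3.96 FPKM in control tumours against 17, 15 and 12.1 after ΔNp73 deletion (log2 fold change 1.77, SE 0.16, adjusted p = 0.00361). Egr1, another early gene, was at 64.3 and 45.6 in control and 46.4, 66.1 and 79.3 FPKM in ΔNp73-deleted tumours (log2 fold change 0.20, SE 0.26, adjusted p = 0.58), with overlapping groups. Of 28 heat shock and unfolded protein genes 15 rose (53.6%, median 0.50). Genes of this list and of the AP-1 list can respond to tissue handling, whose part in these rises was not tested. Hspa5, the chaperone of the endoplasmic reticulum, was at 85.9 and 93.3 FPKM in control and 153, 173 and 179.8 with ΔNp73 deleted (log2 fold change 0.90, SE 0.11, adjusted p = 0.00529), Ddit3, which encodes CHOP, rose by 1.21 (SE 0.20, adjusted p = 0.0115), and Hspa1b, an inducible heat shock protein, rose by 1.26 (SE 0.12, adjusted p = 0.00366). Of 24 hypoxia genes 6 rose and 2 fell, with Hif1a at 37.3 and 39.8 FPKM in control tumours against 60.1, 63 and 56.4 after ΔNp73 deletion (log2 fold change 0.62, SE 0.09, adjusted p = 0.00838) and Adm, adrenomedullin, at 7.34 and 7.19 in control and 20.1, 17.9 and 13.4 FPKM in ΔNp73-deleted tumours (log2 fold change 1.12, SE 0.18, adjusted p = 0.00982). After removal of either control, no AP-1 or heat shock gene passed by limma and 1 hypoxia gene rose. Without ΔNp73-deleted replicate 2, 8 heat shock genes and 3 hypoxia genes rose.

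Of 7 germ cell genes tested, of 30 listed, 2 fell (28.6%) and 1 rose (14.3%), against 14.4% and 15.4% of all genes. Ybx2, an RNA-binding protein of germ cells, was at 3.1 and 2.4 FPKM in control and 0.335, 0.278 and 0.0839 with ΔNp73 deleted (log2 fold change -1.6, SE 0.17, adjusted p = 0.00451), and Tdrd5 was at 10.3 and 12.5 FPKM in control tumours against 3.91, 3.68 and 4.9 after ΔNp73 deletion (log2 fold change -1.26, SE 0.15, adjusted p = 0.0051), while Tdrd7 rose (1.07, SE 0.19, adjusted p = 0.0138). Of 15 microRNA processing genes 2 fell (13.3%), near the 14.4% of all genes. They were Dgcr8, the partner of Drosha (-0.50, SE 0.14, adjusted p = 0.0466), and the nuclear transport gene Ran (-0.45, SE 0.11, adjusted p = 0.0328). With either control left out none of these passed by limma. Without ΔNp73-deleted replicate 2 no microRNA processing gene passed, and without replicate 3, 4 fell.

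**Figure D4:**
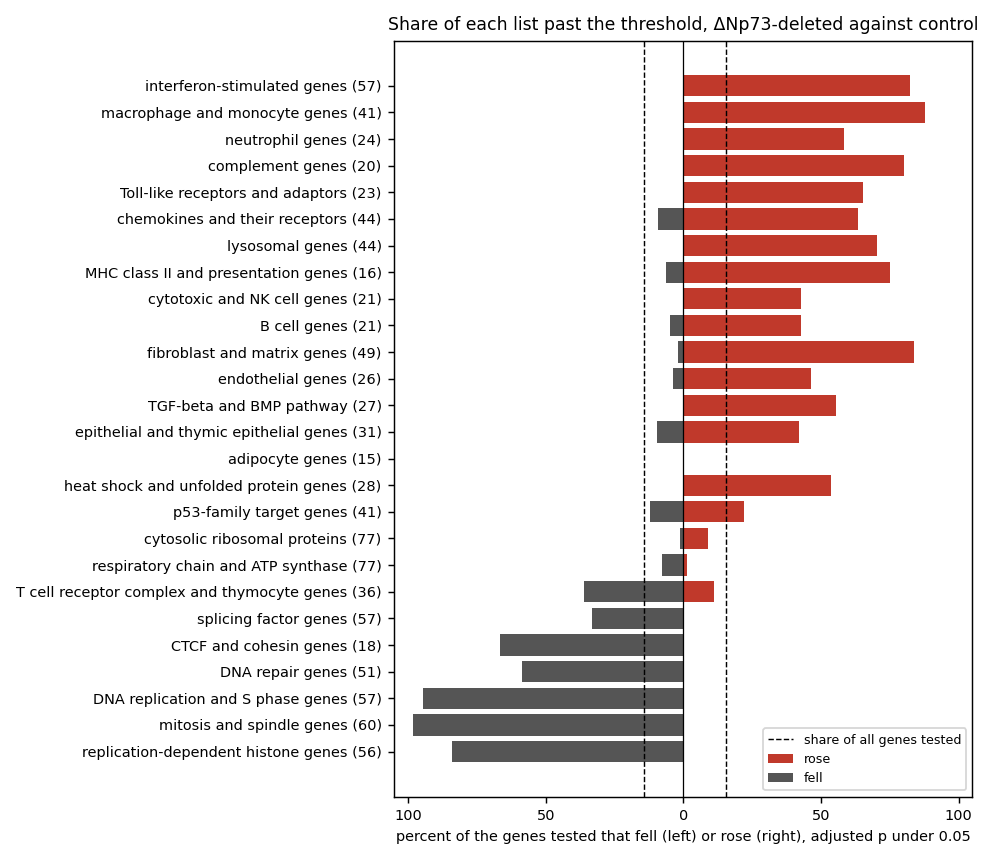
Percent of the genes tested in each list (y axis, with the number tested) that fell (bars to the left) or rose (bars to the right) in ΔNp73-deleted against control, with dashed lines at the shares over all genes tested, 14.4% and 15.4%. Mitosis, replication and histone genes reach far left and macrophage, fibroblast and interferon genes far right, while p53-family targets lie near both lines.

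The ΔNp63-deleted libraries, which also received Cre, show where the ΔNp73-deleted group stands against another deletion. Of 12921 genes 7 differed between these groups (0.0542%), 4 higher and 3 lower in ΔNp73-deleted, with 884 at an unadjusted p under 0.05 by limma. Without ΔNp63-deleted replicate 2 the count was 14, which held all 7, and without ΔNp73-deleted replicate 1 or 2 it was 3. Trim12a, a TRIM-family gene, was at 15.1, 14.7 and 11.9 FPKM in the ΔNp73-deleted libraries and at 0.346, 0.2 and 0.226 in the ΔNp63-deleted ones (log2 difference 3.56, SE 0.16, adjusted p = 0.00171), and the controls, at 10.9 and 10.5, were like the former. Also higher in the ΔNp73-deleted group were Synpr, a synaptic vesicle gene (12.1, 13.6 and 18.6 against 0.182, 0.129 and 0.717, 3.56, SE 0.24, adjusted p = 0.00797), and Dzip1, a gene of cilium assembly (11.2, 13.3 and 16.2 against 1.97, 2.17 and 2.54, 2.17, SE 0.18, adjusted p = 0.0236), with controls at 8.31 and 6.73 and at 8.48 and 16.8.

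H2-T10, of the nonclassical MHC class I family with near-identical relatives, was at 0.133, 0.154 and 8e-07 against 33.5, 22.5 and 41.1 FPKM (-4.89, SE 0.24, adjusted p = 0.00198), and Ugt8a was at 0.0398, 0 and 0.041 against 5.25, 7.18 and 5.27 (-2.74, SE 0.17, adjusted p = 0.00539). Of these 5 genes Synpr alone passed against control, with a rise of 0.87. The other 2 of the 7 have no symbol in the table. No gene of any list was among the 7, by limma.

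The median differences of the lists between the deletion groups depended on ΔNp63-deleted replicate 2. Without it, the median difference, ΔNp73-deleted minus ΔNp63-deleted, was 0.10 for interferon-stimulated genes, 0.29 for macrophage genes, 0.34 for mitosis, 0.13 for replication and 0.19 for histones, against -0.01 over all genes. It was 0.41 for fibroblast and matrix genes, 0.48 for neutrophil genes, -0.31 for T cell genes and -1.43 for fat genes. With all 3 ΔNp63-deleted libraries the medians were 0.61, 0.69, -0.34, -0.41 and -0.64 for the first 5 lists, so the sign for the mitosis, replication and histone lists turned with that library. Both deletion groups are set against the same 2 controls, so their shared distance from control is no independent support for either.

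**Figure D5:**
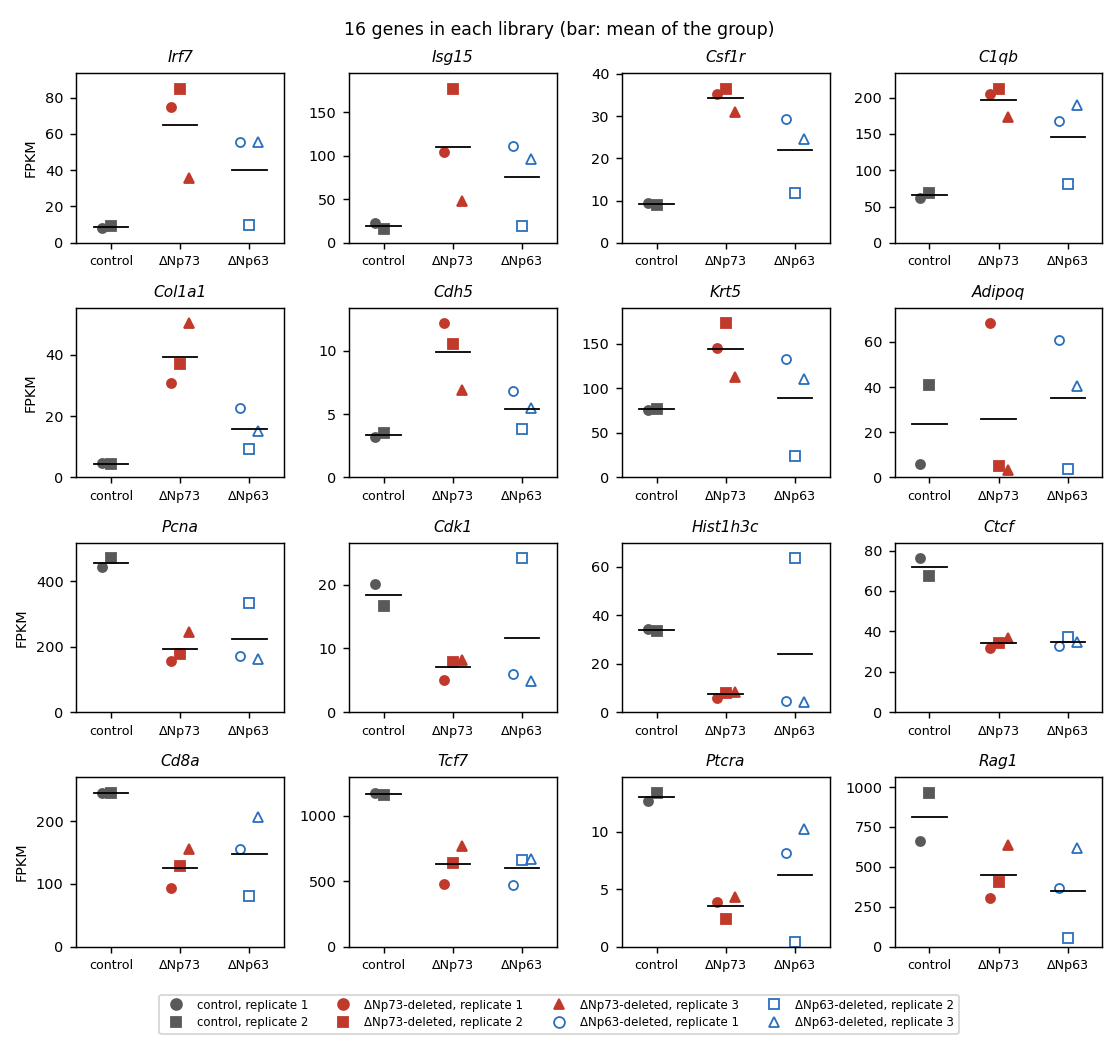
FPKM (y axis) of 16 genes in each of the 8 libraries, by group (x axis), with a bar at the mean of each group. ΔNp73-deleted libraries lie apart from the controls for Irf7, Csf1r, Col1a1, Pcna, Hist1h3c and Ctcf, while Adipoq overlaps and ΔNp63-deleted replicate 2, the open square, often lies near the controls.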

How the data were processed

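RNA of thymic lymphomas was sequenced in 8 libraries, and 5 of them entered the comparison with control. The authors deposited 1 table of FPKM per RefSeq transcript, quantile-normalised between libraries per the file headers, with 16589 entries under 13681 symbols and no counts, so no counting interval is given. The submitters' processing notes name TopHat2 2.0, Cufflinks 2.0 and build mm9 without their roles.

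Each symbol was represented by its entry of highest mean over the 8 libraries. A gene entered the tests if 2 or more of the 8 libraries reached an FPKM of 1. The fit was limma (version 3.58.1, R 4.3.3) on log2(FPKM + 1), two-sided, with a trended empirical Bayes prior and 3 residual and 2.68 prior degrees of freedom. Benjamini-Hochberg adjustment covered all genes, at a threshold of 0.05. The method was also run on simulated data with independent noise and few genes changed. Here many genes changed together, so that run says nothing about the calls made here. An exact permutation test of a single gene was not run, since the 10 arrangements of 2 against 3 libraries cannot pass 0.05. The labels give no replicate numbers, and accession order supplied them.

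Lists are described by counts and medians, with no test. The members and lists were chosen with earlier results of these data known. Named genes are the p53 family, the 12 largest changes per direction past the threshold without overlap (small RNA genes, models without a descriptive symbol and receptor segments passed over), the key members set for each list with up to 4 of smallest p, and up to 5 per direction between the deletion groups. Not all are printed, and some are not reported here. Promoters are from RefSeq (GRCm38.p6), and no mm9 coordinates are given. The alternatives varied the pseudocount, filter, entry choice, scaling, prior, libraries modelled and each replicate. The models with a Y-linked covariate and without ΔNp63-deleted replicate 2 were chosen after seeing the data.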

Additional observations from a re-analysis of the deposited data

Results flagged for a closer look

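The 5 genes below differed between the groups labelled ΔNp73-deleted and ΔNp63-deleted by the limma test of that difference. The log2 difference, ΔNp73-deleted minus ΔNp63-deleted, was 3.56 for Trim12a, 3.56 for Synpr and 2.17 for Dzip1, which were lower in all 3 ΔNp63-deleted libraries than in the 5 others. It was -4.89 for H2-T10 and -2.74 for Ugt8a, which were higher in all 3 ΔNp63-deleted libraries than in the 5 others. Of the 5, Synpr alone also passed against control (log2 fold change 0.87, SE 0.20, adjusted p = 0.0257). No group held 4 or more libraries, so single libraries were not screened as outliers.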

How the results depend on the processing

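The count of 3856 genes stayed between 2982 (Y-linked expression as a covariate) and 4232 (sum of a symbol's entries) under the alternatives that kept all 5 libraries and modelled them alone. It was 7 with all 8 libraries in 1 model, 4218 with ΔNp63-deleted replicate 2 left out of that model, and 118 to 4161 with each replicate left out in turn, the lowest without control replicate 1 (118), control replicate 2 (133) and ΔNp73-deleted replicate 2 (1790). A lone control is assumed to vary like the other group. Centring on library medians gave 48.8% of calls higher, against 51.6%. The comparison with ΔNp63-deleted gave 3 to 14 genes with a replicate left out.

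Of 208 genes tracked over the alternatives 168 passed. Many were chosen by a large change or a small p in these same libraries. Where the groups do not overlap, no left-out replicate can turn the sign. All 168 kept their direction, which was thus largely fixed in advance. Of them 2 passed with all 8 libraries, 167 without ΔNp63-deleted replicate 2, 157 with the Y-linked covariate, 32 and 38 without control replicates 1 and 2, and 158, 141 and 164 without ΔNp73-deleted replicates 1, 2 and 3. Changes of sign were limited to 13 genes that had not passed. With each replicate left out in turn, their log2 fold changes ran from -1.75 to 0.81 for Adipoq, -1.78 to 0.50 for Cfd, -0.30 to 0.61 for Dzip1, -0.043 to 0.44 for Egr1, -0.89 to 1.83 for Fabp4, -0.106 to 0.016 for Hk1, -0.26 to 0.16 for Lef1, -0.19 to 0.072 for Myc, -0.29 to 0.047 for Npm1, -0.10 to 0.42 for Pecam1, -0.029 to 0.48 for Ramp3, -0.043 to 0.31 for Siglech and -0.037 to 0.068 for Smad3. The value was -0.0031 for Smad3 with the Y-linked covariate and 0.10 for Npm1 with a symbol's entries summed. Of 49 lists with at least 5 genes tested, 41 kept the sign of their median. The other 8 medians ran over the alternatives from -0.06 to 0.14 for p53-family targets, -0.31 to 0.53 for senescence, -1.26 to 0.81 for fat, -0.09 to 0.15 for lung and pancreas, -0.29 to 0.01 for T lineage factors, -0.12 to 0.02 for the MYC network, -0.03 to 0.15 for glycolysis and -0.33 to 0.06 for the TCA cycle. The muscle list gave no median at a filter of 5 FPKM, and the cause of these changes was not tested. No paired analysis was possible because the labels give the libraries no shared replicate numbers.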
